A study of Mus musculus with 6 samples.

Results

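Keratin-associated proteins are the matrix proteins of the hair shaft, encoded in the mouse by the Krtap genes. They were read here from every probe set whose only gene symbol on the platform is Krtap followed by a number, which gave 43 probe sets of 45101 on the array, for 38 genes of the 18193 that the array names, in 22 numbered subfamilies. The family was selected on these levels, because many of its members were high in 1 tumour, so the values in the 6 tumours, and the excess of the highest tumour, are descriptions and carry no test. The 6 tumours grew from GLMT1 cells, 1 line from GRS/A mice whose name stands for a lung metastasis, placed under the skin of the back. All hosts were male. In 3 of them, plain GRS/A animals, tenascin-C, a glycoprotein of the extracellular matrix, was intact (WT), and the other 3, of the GRS/A-TgH(TnC) strain, were deficient in it (TNKO). The study design gives their age as 8 weeks, and the labels of the tumours give 10 weeks. The tumour cells are not described as lacking tenascin-C, and each tumour came from a separate host mouse. The labels give no marker of GLMT1 cells, so the cell label could not be checked against one.

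Hair grows from follicles in the skin, and Krtap genes are switched on late, in the cells of a growing follicle that are hardening into the shaft. There, keratin filaments are embedded in keratin-associated proteins, which bind to them and to each other, largely through disulphide bonds. The proteins are usually sorted by composition into high glycine-tyrosine, high sulphur and ultra-high sulphur classes, and the genes lie side by side in clusters.

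Values are the authors' deposited ones, taken as log2, and differences between arrays are strongly compressed in them. Over all 45037 probe sets that are not controls, the median span across the 6 tumours was 5.46e-06 units, and 249 (0.553%) spanned more than 0.01. Differences are therefore given in deposited units and cannot be read as folds. TNKO 3 stood apart in these genes, and its array median lay 0.00231 above the mean of the other 5. Tnc itself reached 9.04 in WT tumours and at most 8.83 in TNKO tumours in its brighter probe set (difference -0.201, adjusted p = 0.0537 by limma). In tumour tissue taken whole, more cells of a type and more RNA per cell cannot be told apart.

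Of the 43 Krtap probe sets, 41 were highest in TNKO 3, against 15.6% of all probe sets. The excess, the highest tumour minus the next highest, had a median of 0.116 units and ran from 3e-08 to 6.45. It was at least 1 unit in 14 Krtap probe sets, for 13 genes, and at least 0.1 unit in 23. Over the whole array 0.0466% of probe sets had an excess of 1 unit, 21 in all and each of them highest in TNKO 3, and 0.138% had an excess of 0.1. Since the choice of the family used this measure, nothing is read from these shares. Nearest to 1 unit were Krtap14 and a probe set of Krtap19-1 above it (1.39 each) and Krtap7-1 below it (0.917). After quantile normalization or subtraction of array medians 32 of the 43 remained highest in TNKO 3 (against 1.15% and 0.291% of all probe sets), and 14 still had an excess of at least 1. Without TNKO 3 no Krtap probe set had an excess of 1 unit.

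**Figure D1:**
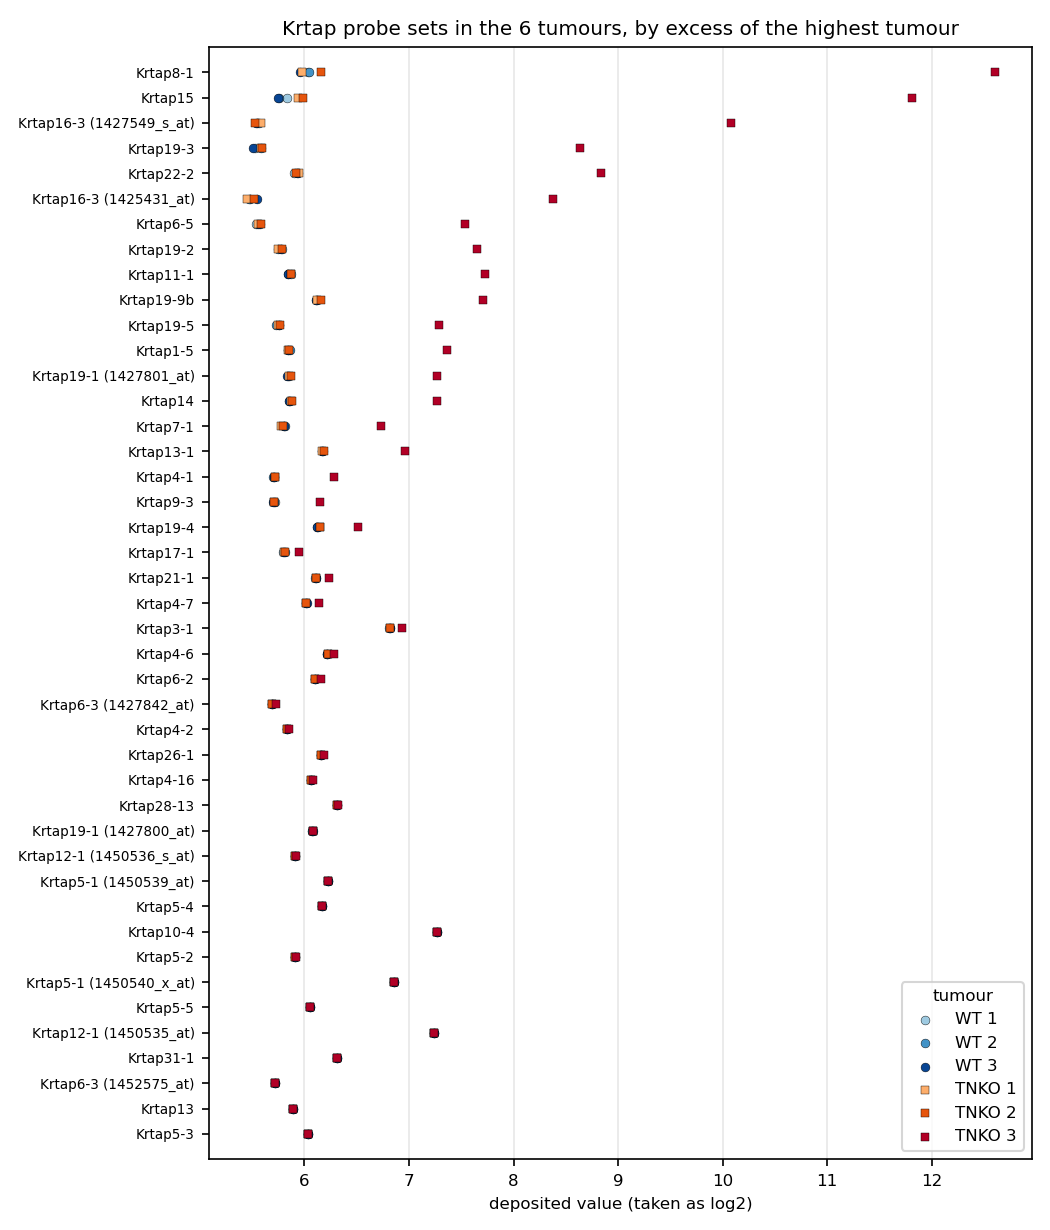
Deposited value (horizontal axis, taken as log2) of each of the 43 Krtap probe sets in the 6 tumours, circles for WT and squares for TNKO hosts, ordered by the excess of the highest tumour. TNKO 3 sits far to the right in the upper rows, up to 12.60 for Krtap8-1, while the other 5 tumours lie together between 5.45 and 7.27 in every row.

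The sequences before the start sites of the members at both ends of this order are shown, since the members that differ in excess lie in the same gene families. The 3 genes with the highest and the 3 with the lowest excess are given, each as the 120 bases that end at the base before the start, in RefSeq's GRCm38.p6 and on the gene's strand. Capitals mark letters that match a motif searched for, on the strand shown or on the opposite one.
Krtap8-1, chr16:89487953-89488072, minus strand: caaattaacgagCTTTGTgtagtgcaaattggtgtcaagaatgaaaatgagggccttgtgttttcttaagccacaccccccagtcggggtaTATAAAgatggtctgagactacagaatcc
Krtap15, chr16:88828889-88829008, plus strand: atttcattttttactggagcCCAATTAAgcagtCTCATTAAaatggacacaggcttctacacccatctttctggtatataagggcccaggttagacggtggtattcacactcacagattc
Krtap16-3, chr16:88962874-88962993, minus strand: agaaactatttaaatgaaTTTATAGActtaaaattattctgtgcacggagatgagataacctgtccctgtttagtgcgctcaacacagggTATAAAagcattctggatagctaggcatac
Krtap31-1, chr11:99907800-99907919, plus strand: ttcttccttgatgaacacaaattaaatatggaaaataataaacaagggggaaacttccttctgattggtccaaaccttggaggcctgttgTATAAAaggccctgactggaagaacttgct
Krtap13, chr16:88751629-88751748, minus strand: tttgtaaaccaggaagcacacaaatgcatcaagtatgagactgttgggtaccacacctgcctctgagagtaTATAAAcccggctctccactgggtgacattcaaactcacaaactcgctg
Krtap5-3, chr7:142201244-142201363, plus strand: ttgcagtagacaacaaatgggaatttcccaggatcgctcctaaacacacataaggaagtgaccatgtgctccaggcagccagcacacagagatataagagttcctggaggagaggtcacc

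The motifs were searched in windows of 300 bases, 250 before the start and 50 after it, which the RefSeq promoter table held for 36 of the 38 genes. A TATA box was the letters TATAAA on the gene's strand between bases -50 and -11. It was found in 23 of 36 Krtap windows (63.9%), against 2.4% of the 32851 windows in the table. Among those shown, Krtap8-1 holds it from base -29, Krtap16-3 and Krtap31-1 from base -30 and Krtap13 from base -49. Krtap15 and Krtap5-3 hold TATAAG there and not TATAAA. Only the exact letters TATAAA were searched, so the count leaves out near matches. The letters CTTTGA or CTTTGT on either strand, a core bound by LEF1, a transcription factor of the Wnt pathway active in hair precursor cells, were in 12 of the 13 windows of genes with an excess of at least 1 (92.3%). They were in 9 of the 23 windows of the other genes (39.1%) and in 31.2% of all windows. Krtap22-2 was the gene with an excess of at least 1 whose window lacked them. The same letters were in 15 of 19 windows on chromosome 16 (78.9%) and in 6 of 17 elsewhere (35.3%). The genes with the high excess other than Krtap1-5 all lie on chromosome 16, so excess and place overlap and were not tested apart. Of the chromosome 16 genes with an excess under 1, Krtap13-1, Krtap19-4 and Krtap21-1 lacked the letters. The windows of Krtap6-2, Krtap6-3, Krtap26-1 and Krtap13 held them. Lef1 itself, given here because of these letters, read 6.23 in all 6 tumours, below the median level of the array. Its excess was 0.000395, and those of Hoxc13 and Foxn1, whose letters follow, were 0.00298 and 0.000231. All of these were highest in TNKO 3, as were 17.3% of all genes, and the median excess of all genes was 1.08e-06. Whether these factors rose with the Krtap genes was not tested. Letters read by HOXC13, a homeobox factor of the hair shaft, were searched on both strands as TTAATNAA, TTAATNAG, TTAATNGA, TTAATNGG, TTTATNAA, TTTATNAG, TTTATNGA and TTTATNGG. They were in 17 of 36 Krtap windows (47.2%), 7 of 13 with the high excess and 10 of 23 without, against 18.9% of all windows. The TTTATN forms can overlap TATAAA read on the opposite strand, and with such overlaps left out the counts were 15 of 36 and 17.1%, with 5 of 13 windows of the high excess and 10 of 23 of the others. The letters GACGC on either strand, a core of sites bound by FOXN1, a factor of the growing hair, were in 2 of 36 windows (5.56%), against 27.2% of all. Krtap windows were poorer in G and C than most, with a median of 41.3% against 52.7%. Many of these genes are recent copies of each other and their windows are not independent. A match is only a match of letters.

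The high glycine-tyrosine proteins are small proteins rich in those residues, and subfamilies 6, 7, 8, 19, 21 and 22 were placed among them here. These subfamilies gave 15 probe sets, of which 15 were highest in TNKO 3 and 8 had an excess of at least 1, with a median excess of 1.39. Krtap8-1 stood at 6.04, 6.05 and 5.95 in WT 1, 2 and 3, at 5.98 and 6.15 in TNKO 1 and 2, and at 12.60 in TNKO 3. Its excess of 6.45 was the largest of any probe set on the array, and the other TNKO tumours overlapped the WT tumours. Krtap19-3 stood at 5.53, 5.58 and 5.51 in WT, at 5.58 and 5.60 in TNKO 1 and 2, and at 8.64 in TNKO 3. Krtap22-2 stood at 5.90, 5.93 and 5.94 in WT, at 5.95 and 5.92 in TNKO 1 and 2, and at 8.83 in TNKO 3. In Krtap19-3 all 3 TNKO tumours were above the WT tumours, in TNKO 1 and 2 by little, and in Krtap22-2 the groups overlapped. Krtap6-5 stood at 5.54, 5.57 and 5.55 in WT, at 5.56 and 5.58 in TNKO 1 and 2 and at 7.53 in TNKO 3, and Krtap7-1 at 5.80, 5.81 and 5.81, at 5.78 and 5.80, and at 6.73. Krtap21-1 stood at 6.10, 6.11 and 6.11 in WT, at 6.11 and 6.11 in TNKO 1 and 2, and at 6.23 in TNKO 3, an excess of 0.118. Subfamily 19 was the most fully measured of the class, with 7 probe sets for 6 genes, 5 of them with an excess of at least 1. Within it Krtap19-2 (1.86), Krtap19-9b (1.55) and Krtap19-5 (1.52) followed Krtap19-3, and Krtap19-4 had 0.368. Subfamily 6 was uneven: Krtap6-2 had an excess of 0.0529, against 1.95 for Krtap6-5.

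The high sulphur proteins are cysteine-rich partners of the hair keratins. Subfamilies 1, 3, 11, 13, 14, 15 and 26 were placed among them here, with 8 probe sets. Of these 7 were highest in TNKO 3 and 4 had an excess of at least 1, with a median of 1.08. This median depends on the sorting, which was added after values were seen and left subfamilies 10, 12, 16, 28 and 31 unplaced. Krtap15 stood at 5.83, 5.75 and 5.74 in WT, at 5.94 and 5.99 in TNKO 1 and 2, and at 11.81 in TNKO 3. It was the member with a clear excess in which TNKO 1 and 2 also lay furthest above the WT tumours. Krtap11-1 stood at 5.88, 5.84 and 5.84 in WT, at 5.87 in both TNKO 1 and TNKO 2, and at 7.72 in TNKO 3. Krtap1-5 stood at 5.85, 5.86 and 5.85 in WT, at 5.84 and 5.86 in TNKO 1 and 2, and at 7.36 in TNKO 3. Krtap14 stood at 5.86, 5.86 and 5.85 in WT, at 5.87 and 5.88 in TNKO 1 and 2, and at 7.27 in TNKO 3. Below 1 unit, Krtap13-1 reached 6.96 in TNKO 3 against 6.17 to 6.19 elsewhere. Krtap3-1 reached 6.93 against 6.81 to 6.82, and Krtap26-1 reached 6.18 against 6.16. Krtap13, a near namesake of Krtap13-1, read 5.89 in all 6 tumours and was highest in TNKO 2 by 8.1e-07.

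The ultra-high sulphur proteins are still richer in cysteine. Subfamilies 4, 5, 9 and 17, placed among them here, had the smallest excesses of the 3 classes. Of their 13 probe sets 12 were highest in TNKO 3, none had an excess of at least 1, and 4 had one of at least 0.1. Krtap4-1 stood at 5.71, 5.70 and 5.71 in WT, at 5.72 in both TNKO 1 and TNKO 2, and at 6.28 in TNKO 3. Krtap9-3 stood at 5.71, 5.71 and 5.70 in WT, at 5.71 in both TNKO 1 and TNKO 2, and at 6.15 in TNKO 3. The 5 probe sets of subfamily 4 had excesses from 0.0118 to 0.557, and Krtap17-1 one of 0.134. In subfamily 5, whose proteins are found in the cuticle that covers the hair, 6 probe sets for 5 genes had excesses from 3e-08 to 0.00136. The highest of them, a probe set of Krtap5-1, had 0.000209 after quantile normalization and 0.000112 after subtraction of array medians, with WT 1 then highest. No probe set of the subfamily stayed highest in TNKO 3 under either scaling. The deposited excesses of the subfamily were all smaller than the shift of the array median of TNKO 3, 0.00231. Subtraction of array medians therefore removes them by its size alone. Most probe sets did not share that shift, since their median span across the tumours was 5.46e-06.

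Of the 5 subfamilies not placed in a class, Krtap16-3 stood out. Its probe set 1427549_s_at read 5.54, 5.56 and 5.54 in WT, 5.59 and 5.53 in TNKO 1 and 2, and 10.08 in TNKO 3. Krtap28-13 (excess 0.00785), Krtap12-1 (at most 0.00492), Krtap10-4 (0.000565) and Krtap31-1 (2.63e-05) were nearly level across the tumours.

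The excess also followed where the genes lie, by RefSeq's GRCm38.p6. On chromosome 16, 13 of 23 probe sets had an excess of at least 1, with a median of 1.39. On chromosome 11 it was 1 of 10, that of Krtap1-5, with a median of 0.113. On chromosomes 1, 7 and 10 it was none of 10, and no excess there was above 0.00785. Along chromosome 16, the 11 measured genes in order from Krtap14 to Krtap6-5 held 11 of the 13 high probe sets. The others were Krtap8-1 and Krtap11-1 towards the far end. The ends of that stretch were set from these same values, so its count is a description. Inside that stretch Krtap19-4 and a probe set of Krtap19-1 stayed under 1 unit. Next to it lay Krtap13 on one side (8.1e-07) and Krtap6-3 on the other (at most 0.0325). Gm10229, which lies between Krtap22-2 and Krtap6-5 and was looked up after its value was seen, stood at 8.52 in TNKO 3 against 5.87 to 5.91. Class and place overlap: all 15 probe sets placed as high glycine-tyrosine are on chromosome 16, and none placed as ultra-high sulphur is. Of the high sulphur probe sets, 3 of 6 on chromosome 16 and 1 of 2 on chromosome 11 had an excess of at least 1, so the 2 orderings cannot be told apart here.

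**Figure D2:**
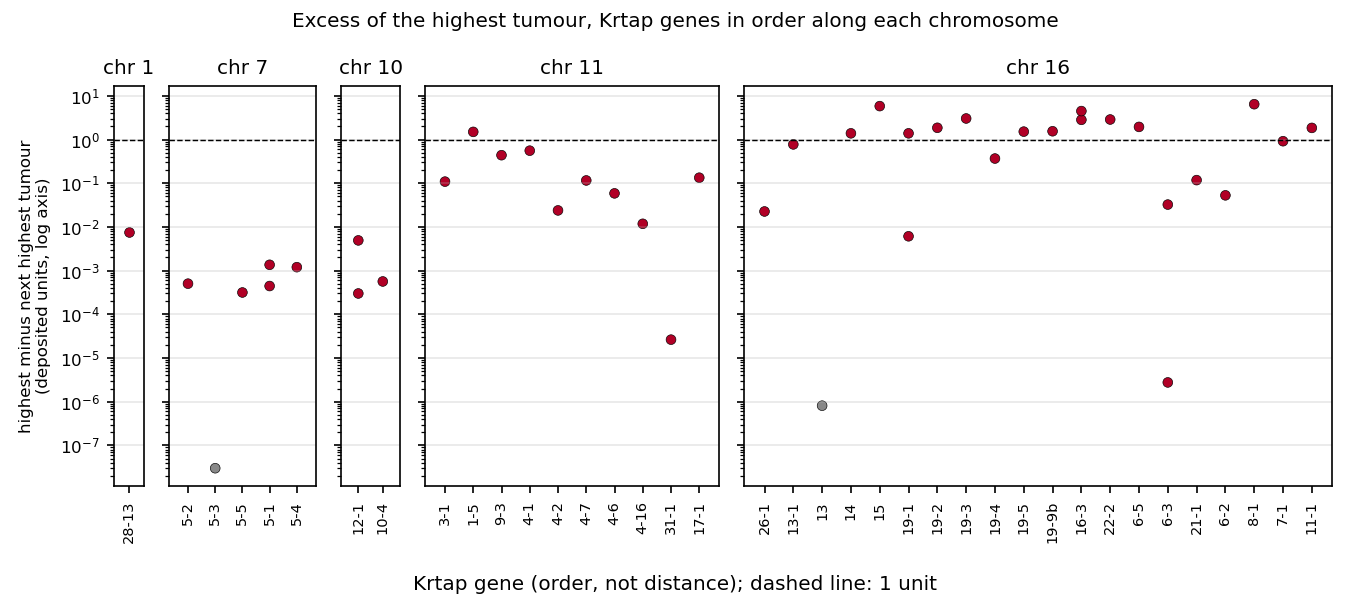
Excess of the highest tumour over the next (vertical log axis, deposited units) for each Krtap probe set, with genes in their order along chromosomes 1, 7, 10, 11 and 16; red points are highest in TNKO 3, grey ones in another tumour, and the dashed line is 1 unit. Points above the line lie in the run from Krtap14 to Krtap6-5 and at Krtap8-1 and Krtap11-1 on chromosome 16, and at Krtap1-5 on chromosome 11.

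In 5 genes a pair of probe sets could be compared, and they agreed in some and not in others. For Krtap16-3 both were high in TNKO 3, with excesses of 4.49 and 2.83. For Krtap19-1 the probe set 1427801_at read 7.27 in TNKO 3 against 5.83 to 5.88 elsewhere, while 1427800_at read 6.08 in every tumour, with an excess of 0.00611. The 2 probe sets of Krtap6-3 had excesses of 0.0325 and 2.76e-06, those of Krtap12-1 0.00492 and 0.0003, and those of Krtap5-1 0.00136 and 0.000444. A low excess in a gene with a single probe set is therefore a statement on that probe set. Of the 43 probe sets 4 carry the _x_at or _s_at ending that marks probes shared between transcripts, and without these 12 of 39 had an excess of at least 1. Family members are near copies, and sharing of signal between them was not tested for the rest. Another 6 probe sets, left out because they name several genes with a Krtap gene among them, were also highest in TNKO 3 in 6 of 6, with excesses from 4.35e-05 to 1.84.

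Most members were dim in the other tumours. All 14 with an excess of at least 1 lay below the median level of the array, 6.57, in the median of the other 5 tumours, where single values ran from 5.45 to 6.16. So did 39 of all 43. In the 14 with an excess under 0.01 single values ran from 5.72 to 7.27.

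Compared between the host genotypes, the Krtap probe sets did not pass. With limma's test of TNKO against WT over all probe sets, 0 of 43 passed at an adjusted p under 0.05 and 1 had an unadjusted p under 0.05 (Krtap13, higher by 3.82e-06 units, adjusted p = 0.138 by limma). The backgrounds were 0.175% of all probe sets at the adjusted threshold, and 20.3% at the unadjusted one, 9.53% higher. In the group mean 43 of 43 were higher in TNKO tumours, against 54.4% of all. The values of TNKO 3 chose the members, so nothing is read from that direction. With quantile normalization 10 of the 43 were lower, against 44376 of all 45037 probe sets. With array medians subtracted 11 were lower, against 44672 of all. Krtap8-1 was 6.01 ± 0.0511 in WT and 8.24 ± 3.77 in TNKO tumours (SD, n = 3 each), a difference of 2.23 (SE 2.04, adjusted p = 0.601 by limma). The difference in Krtap15 was 2.14 (SE 1.82, adjusted p = 0.573 by limma). The spread within the TNKO group was larger than the difference between the groups in both. With array medians subtracted, limma called 19 of the 43, all higher, among them the 14 with an excess of at least 1, against 0.151% of all probe sets, and 8 without TNKO 3, against 0.222%. In both of these fits the estimated prior degrees of freedom were infinite, so every probe set was given the same SD, 0.0309 units with all tumours, and its own spread between tumours did not enter. Those calls follow the size of the mean difference alone and are not taken as differences beyond the replicate spread. The 3 TNKO tumours all lay above the 3 WT tumours in 17 of 43, and below in none, against 28.0% of all probe sets in either direction and 14.2% above. Without TNKO 1 the count was 26, against 19.7% of all probe sets above.

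TNKO 1 and 2 were also compared with the WT tumours alone. The excess that chose the family was measured against these 5 tumours, so the counts are descriptions beside their backgrounds. Without TNKO 3, limma called 0 of 43 between TNKO 1 and 2 and the WT tumours, against 0.0133% of all probe sets. At an unadjusted p under 0.05 there were 9, each of them higher, against 18.7% of all probe sets in either direction and 9.47% higher. In the mean 35 of 43 were higher in TNKO 1 and 2, against 55.0% of all probe sets. With quantile normalization it was 32, against 52.7% of all, and with array medians subtracted 35, against 87.0% of all, so the count stood below its background under that scaling. Of the 43, 17 had both TNKO tumours above all WT tumours, against 22.3% of all probe sets, and 1 had both below, against 18.7%. The sizes were small. Krtap15 had the largest difference, 0.188 units (SE 0.0359, adjusted p = 0.163 by limma), and Krtap8-1, Krtap19-3 and Krtap19-4 differed by 0.0528, 0.0479 and 0.0217. The other 8 were lower, and the difference furthest below 0 was that of Krtap7-1, -0.0193. TNKO 2 was the highest of these 5 tumours in 22 of 43 Krtap probe sets, against 24.9% of all, and WT 3 the lowest in 16, against 22.1%. The 5 tumours also spread more in Krtap probe sets than in most: their range exceeded 0.01 unit in 22 of 43 and in 14 of the 14 with a high excess, against 0.453% of all probe sets.

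**Figure D3:**
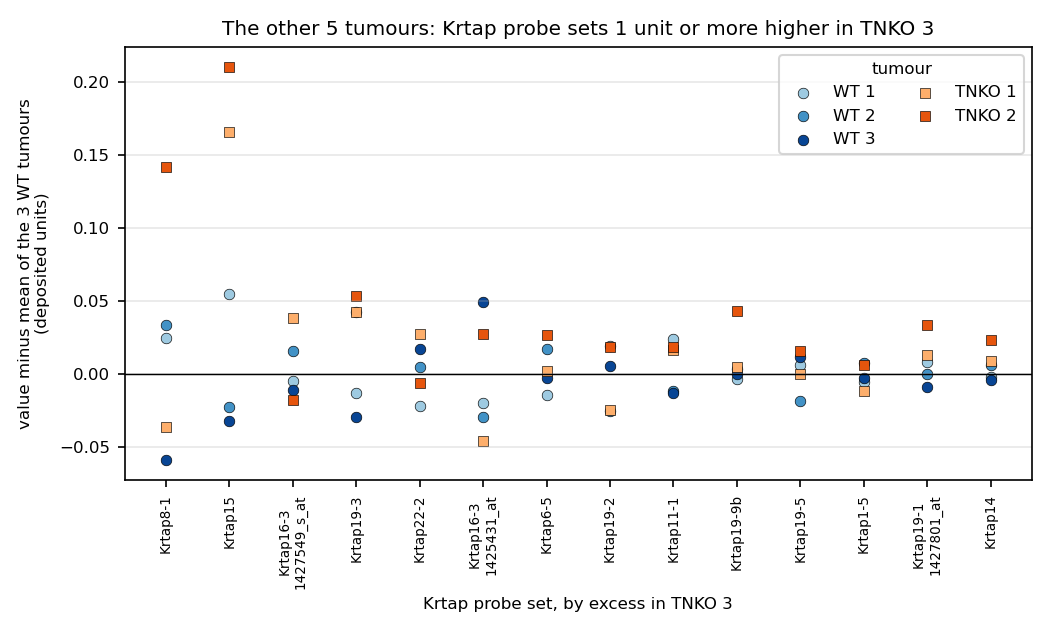
Value minus the mean of the 3 WT tumours (vertical axis, deposited units) in the 5 tumours other than TNKO 3, for the 14 Krtap probe sets with an excess of at least 1, circles for WT and squares for TNKO hosts. TNKO 1 and 2 lie above the WT tumours for Krtap15 and overlap them in most of the others.

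Genes of other parts of the hair and skin were read from lists, each gene by its brightest probe set. Hair cortex keratins, the filament proteins that keratin-associated proteins bind, were highest in TNKO 3 in 12 of 12 genes, against 17.3% of all genes, with a median excess of 0.328 against 1.08e-06 for all genes. They remained so in 9 of 12 under both scalings, against 1.12% of all genes with quantile normalization and 0.528% with array medians subtracted. Krt33a stood at 6.05, 6.01 and 6.06 in WT, at 6.06 in both TNKO 1 and TNKO 2, and at 8.57 in TNKO 3, and Krt34 and Krt86 reached 7.02 and 6.86 against at most 6.07 and 5.91. Inner root sheath keratins, of the layer that moulds the growing shaft, were highest in TNKO 3 in 7 of 7, also under both scalings. Krt25 reached 9.21 against 6.12 to 6.21, Krt27 reached 7.46 against 6.05 to 6.10, and Krt73 reached 6.39 against 6.01 to 6.02. Of 26 hair regulators and shaft enzymes 21 were highest in TNKO 3, and 7 under either scaling, against the same shares of all genes. Their median excess was 0.000157. Tchh, trichohyalin of the inner root sheath and medulla, stood at 5.55, 5.51 and 5.49 in WT, at 5.51 and 5.66 in TNKO 1 and 2, and at 11.57 in TNKO 3. S100a3, a calcium-binding protein of the hair cuticle, reached 6.87 against 5.99 to 6.01, and Crym reached 5.83 against 5.77. Besides the Krtap members, 7 probe sets had an excess of at least 1. They were those of Tchh, Prr9 (9.13 in TNKO 3 against 5.86 to 5.96), Krt25, Gm10229, Krt33a, Krt27 and the shared probe set of Krtap3-2 and Krtap3-3 (7.44 against 5.52 to 5.60), Prr9 having been named after its value was seen.

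In the lists of other cells no gene had an excess of at least 0.1 unit in TNKO 3, though most melanocyte genes were highest there. Of all genes 17.3% were highest in TNKO 3 as deposited, 1.12% with quantile normalization and 0.528% with array medians subtracted. Subtraction of array medians takes TNKO 3 down by 0.00231 against the mean of the other tumours. A clearly smaller excess in TNKO 3 is lost by that scaling itself, so its loss is not read as a result for any list. Of 19 interfollicular epidermis genes 8 were highest in TNKO 3 (2 under either scaling), 0 with an excess of 0.1, against 0.275% of all genes, and the mean level of the list was 6.38 to 6.39 in all tumours. The largest excess in it was that of Krt10, a keratin of the upper epidermis, in WT 3 (6.29 against 6.23), and in TNKO 3 Sprr1a, of the cornified envelope, read 6.06 against 6.01 and Dsg1a 5.83 against at most 5.81. Of 11 melanocyte genes 10 were highest in TNKO 3, and 1 under either scaling. The largest excess, in Dct, was 0.00775, ahead of Tyrp1 (0.000544) and Pmel (0.000499). Dct was the only 1 of them with an excess above the shift of 0.00231. The median excess of the list was 1.07e-05, against 1.08e-06 for all genes. Of 7 sebaceous gland genes 2 were highest in TNKO 3 (0 under either scaling), with no excess above 0.0031, that of Pparg, ahead of Plin2 (0.00108) and Elovl3 (0.000618). Skeletal muscle genes had a mean level of 6.88 to 7.01 in WT tumours, at most 6.55 in TNKO 1 and 2 and 6.99 in TNKO 3. Among them Myh1 stood at 6.17 and 6.64 in TNKO 1 and 2 against 8.65 to 9.44 in WT, Myh2 at 6.10 and 6.12 against at least 6.40, and Acta1 at 7.54 and 7.58 against 8.18 to 8.37. Adipocyte genes were highest in TNKO 1 in 8 of 8, against 18.5% of all probe sets. Cidea, Adipoq and Pck1 stood at 6.75, 8.29 and 6.77 in TNKO 1, and at 6.36, 7.98 and 6.59 in TNKO 2. In TNKO 3 they stood at 5.94, 7.03 and 6.04, against 5.95 to 5.99, 6.46 to 7.38 and 5.97 to 6.34 in WT tumours. Of all 102 list genes, 0 passed limma's test of TNKO against WT, against 0.121% of all genes, and 7 had an unadjusted p under 0.05, against 18.4%. The tumours grew beneath skin. The part of hair follicle cells in the Krtap values of TNKO 3 was not tested.

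**Figure D4:**
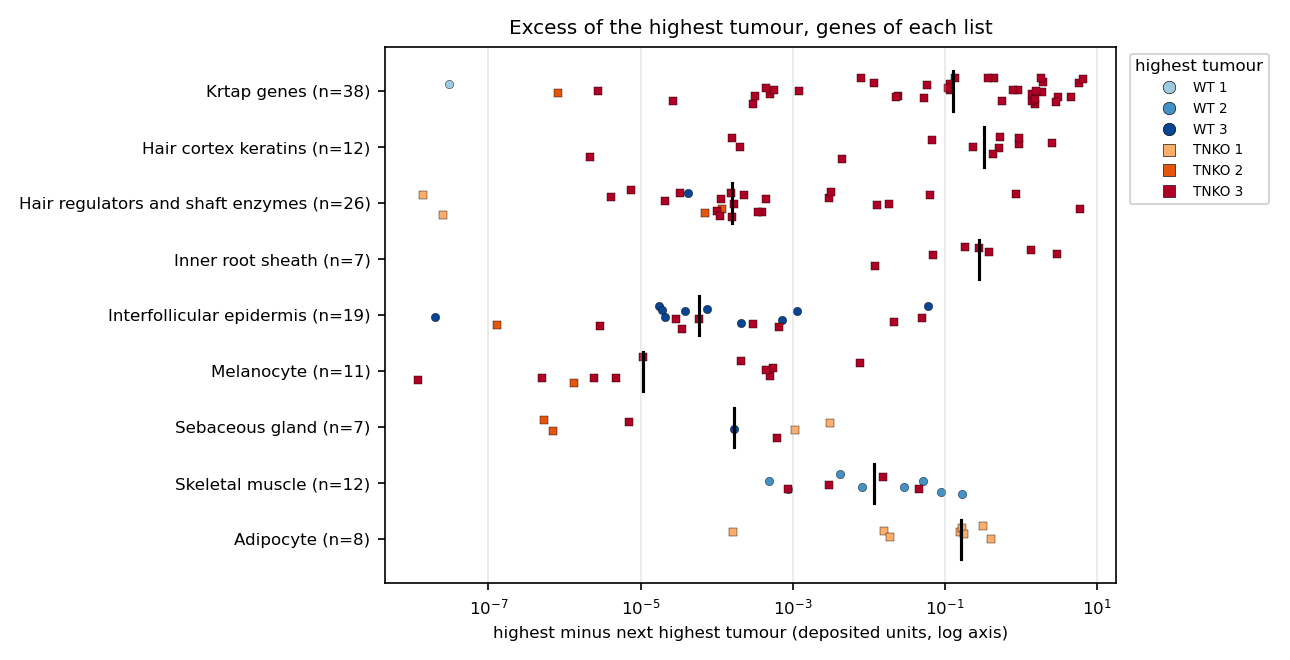
Excess of the highest tumour over the next (horizontal log axis, deposited units) for each gene of the Krtap family and of the 8 other lists, coloured by which tumour was highest; black bars are list medians. Krtap genes, hair cortex keratins and inner root sheath genes reach above 1 unit in TNKO 3, epidermal, melanocyte and sebaceous genes stay under 0.1, and adipocyte genes are highest in TNKO 1.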

How the data were processed

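RNA of 6 tumours was measured on 1-colour Affymetrix arrays. The authors deposited a value for each probe set on each array, taken as log2 from the range. Per the submitters' processing notes R 2.7.2 was used. How values were summarized and normalized, and to which base, is not given in the sources used here. Precision is limited by the number of arrays. Left out were 64 control probe sets. Names came from the platform's annotation (34945 probe sets with 1 symbol, 932 with several, 9160 with none). Checked by gene identifier against RefSeq, 0 Krtap symbols changed.

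TNKO was compared with WT by limma's moderated test (limma 3.58.1, R 4.3.3, two-sided) with Benjamini-Hochberg adjustment over 45037 probe sets and a threshold of 0.05, and tested on simulated data. Named are, per subfamily, the probe set with the largest excess, every Krtap gene with 2 probe sets and the 3 genes of each list with the largest excess; other members are given as examples or in ranges. Members and lists were chosen with earlier results of these data known, and the sorting into composition classes follows general knowledge and was added after values were seen. Alternatives tried were array medians subtracted, quantile normalization, a robust or trended variance, a replicate block, a filter on dim probe sets, other choices of members and each tumour left out. Same-numbered tumours of the groups were not taken as pairs.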

Additional observations from a re-analysis of the deposited data

How the results depend on the processing

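By limma 0 Krtap probe sets were called between the genotypes with each tumour left out in turn, and 0 with quantile normalization, a trend, the robust fit, other choices of members or only probe sets above the median level. Subtraction of array medians gave 19, and 8 without TNKO 3, and it called 21 list genes against 0 as deposited, where all probe sets gave 0.151%, 0.222% and, over genes, 0.286%. That fit gave every probe set 1 common SD. With the replicate block 0 Krtap probe sets and 0 list genes were called. Over all probe sets the block took the calls from 79 to 0. Same-numbered tumours did not deviate together (correlations of deviations 0.083, -0.019 and 0.016), so they share only a number. The count of 17 with groups that do not overlap became 11 with medians subtracted (2.13% of all probe sets, against 28.0% as deposited) and ran from 18 to 26 with a tumour left out, where 36.2% to 40.9% of all probe sets did not overlap. The count of 14 with an excess of 1 unit became 23 at 0.1 unit and 6 at 2 units, and ran from 0, without TNKO 3, to 14. With only probe sets above the median level, fewer were left: 4 did not overlap, 2 had the excess of 1 unit and 6 were highest in TNKO 3. How many were highest in TNKO 3 has no value without that tumour. Of the 43 excesses, 11 changed by over 1.5 times with quantile normalization, none of them above 0.00136 as deposited, and 13 with medians subtracted, none above 0.00611; members outside the largest of each subfamily were added to this count after seeing the data. The tumour that was highest stayed the same in 0 of these 11 and in 2 of these 13. Krtap10-4 went to 0.000294 and 0.000236, in that order, with TNKO 2 highest in both. Krtap31-1 went to 5.05e-05 with TNKO 1 highest and to 6.64e-05 with WT 3 highest. Precision is limited by 3 tumours a group.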
